A study of Mus musculus with 3 samples.

Results

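Matrix proteases cut the collagens and proteoglycans around muscle fibres, and their inhibitors hold that cutting in check. The genes described here encode matrix metalloproteinases (Mmp), tissue inhibitors of metalloproteinases (Timp), the ADAMTS proteases and ADAMTS-like proteins, the ADAM sheddases and meltrins, and the lysyl oxidases. They were chosen by name: every probe set whose annotation gave a single gene symbol of these families was taken, with Adam9, Adam10, Adam12, Adam15, Adam17 and Adam19 standing for the ADAM family. This gave 52 genes with 102 probe sets, out of 18193 genes and 45101 probe sets on the array, and each gene is given by its brightest probe set. Further genes of these families, Mmp15, Mmp21, Mmp25, Mmp27, Mmp28, Adamts2, Adamts13, Adamts14, Adamts17 and Loxl2, had no probe set with a single symbol and were not analysed here.

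Gastrocnemius muscle of male C57BL/6J mice was measured on 3 arrays, 1 for each diet group. HF+SFC mice ate a high-fat diet (D12492, with 60% of calories from fat) to which 0.023% sodium ferrous citrate (SFC, an iron salt) was added by weight, HF mice ate the same high-fat diet without it, and Control mice ate a low-fat diet (D12450B, 10% of calories from fat). Feeding started at 6 weeks of age and lasted 15 weeks, although an age of 21 months stands in the labels. The material on an array was pooled over every sample of that group, the number of animals in a pool was not given, and no group received SFC on the low-fat diet. The D12492 and D12450B diets also differ in their carbohydrates, so fat cannot be told apart from the rest of the diet. With 1 pooled array per group no difference has a replicate check, no test was made, and the ratios below compare these 3 pools.

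In muscle, the matrix is laid down mostly by fibroblasts and tendon cells, while macrophages, fat cells and vessels add proteases of their own. Metalloproteinases are made as inactive precursors, are opened by other proteases such as plasmin, furin-like convertases or Mmp14, and are closed again by the TIMPs. ADAMTS proteases trim procollagens and large proteoglycans, ADAMs release the outer parts of membrane proteins, and lysyl oxidases do the reverse of cutting by crosslinking collagen and elastin.

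The mix was muscle by its markers: all 12 defining fibre genes lay far above the array median. The values are MAS5 signals, an Affymetrix brightness on a linear scale, and the 3 arrays had the same trimmed mean. A gene was placed above the array median where its geometric mean signal over the arrays exceeded 66.3, the mean of the array medians, which were 68.0 for HF+SFC, 67.4 for HF and 63.6 for Control. The actin control probes, a sign of RNA quality, had a 3-prime to 5-prime ratio of 1.15 in HF+SFC, 1.52 in HF and 1.09 in Control. The HF array thus stood apart in actin. It did not in the Gapdh control probes, which had 0.82 in HF+SFC, 0.83 in HF and 0.84 in Control. The part of RNA quality in any ratio with HF was not tested. In whole muscle, more cells of a type and more RNA per cell cannot be told apart.

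By this split 33 of the 52 genes lay above the median and 19 below, and 15 lay above the 75th percentile of probe set signal. The largest HF over Control ratio among the 33 was that of Lox, at 1.80-fold, which turned when its dim probe set was averaged in, as given with its values. Lox, Mmp17 and Adamts3 were the 3 genes at least 1.5-fold higher in HF over Control, and none was as much lower, where 5.47% of all 11361 genes above the median were that much higher and 3.35% that much lower. For HF+SFC against HF, Mmp23 and Adamts3 were at least 1.5-fold higher and none lower, beside 2.94% and 3.7% of all genes above the median. These counts are 9.09% and 6.06% of the 33 genes and rest on 3 and 2 genes, so they do not set the families apart from the background. The median log2 ratio of the 33 was 0.10 for HF over Control and 0.04 for HF+SFC over HF, against -0.01 and 0.01 over all genes above the median. In both comparisons 20 of the 33 were higher and 13 lower, that is 60.6% higher, where 48.1% of all genes above the median were higher in HF over Control and 51.6% in HF+SFC over HF. These shares are the background for the counts of higher genes given below.

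**Figure D1:**
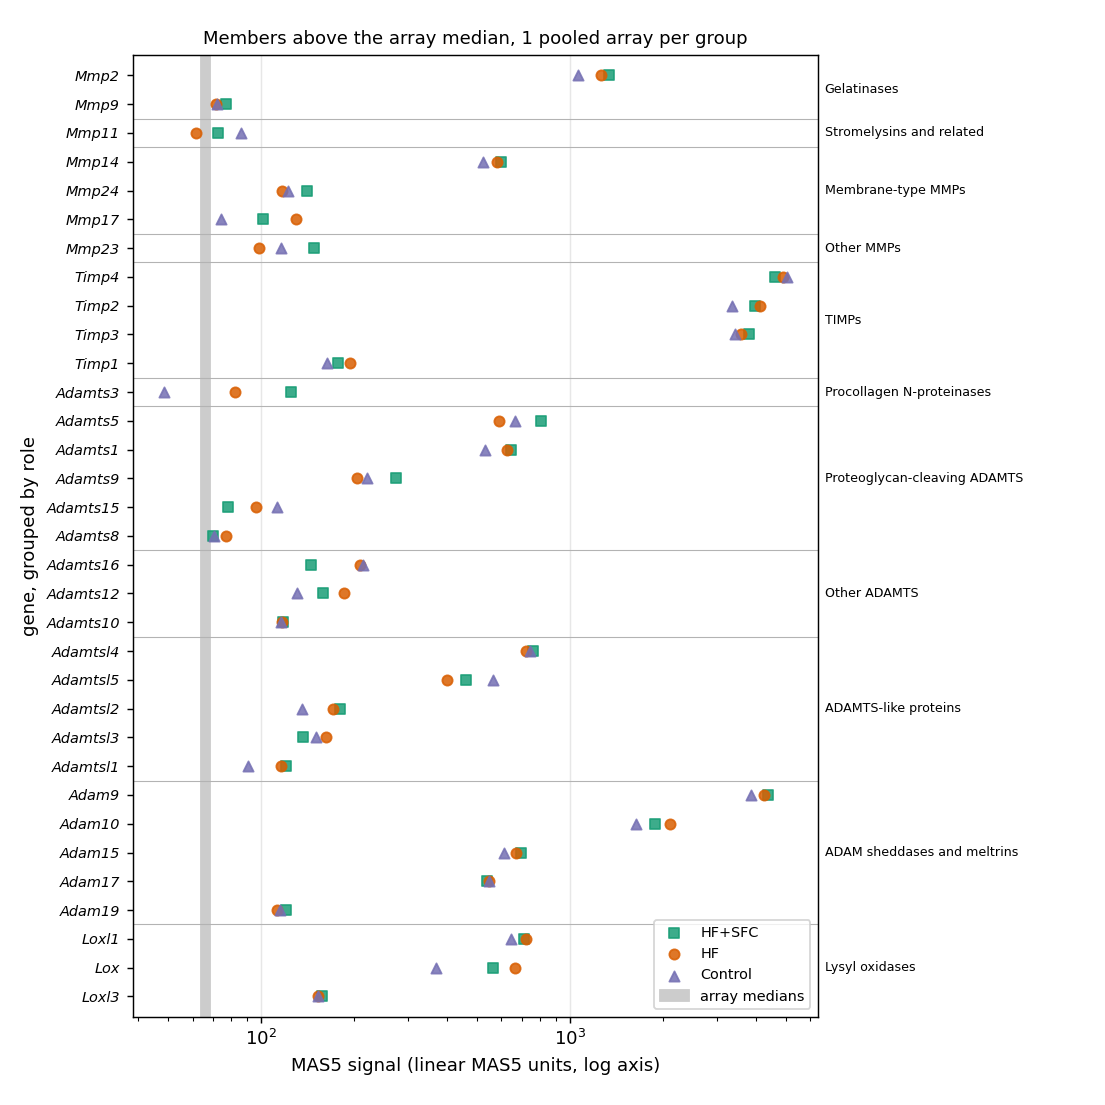
MAS5 signal (log axis, linear MAS5 units) of the 33 genes above the array median, grouped by role, with 1 symbol per pooled array and a grey band over the 3 array medians. The symbols of most genes lie close together, and Lox and Adamts3 have the Control triangle clearly to the left.

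The gelatinases cut denatured collagen and basement membrane. Mmp2, the gelatinase of resting connective tissue, had a signal of 1335 in HF+SFC and 1261 in HF, against 1064 in Control. It was 1.18-fold higher in HF than in Control, and a further probe set was higher as well, with 1251 in HF+SFC, 1299.9 in HF and 967 in Control. Mmp9, the gelatinase typical of neutrophils and macrophages, had 76.6 in HF+SFC, 71.4 in HF and 71.8 in Control, close to the array median on all arrays. Both probe sets of Mmp2 thus put Control lowest, and they did not share an order for the other arrays.

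Mmp14, the membrane-type enzyme that activates the Mmp2 precursor, had 597 in HF+SFC, 581 in HF and 522 in Control, and 2 of its 3 probe sets above the median were higher in HF than in Control. Mmp17, a membrane-type enzyme held by a lipid anchor, had 102 in HF+SFC and 129 in HF, against 74.3 in Control. Its log2 ratio was 0.80 for HF over Control and -0.35 for HF+SFC over HF. It had a single probe set above the median, so that no second reading on the same arrays stood beside this difference. Mmp24, best known in neural tissue, had 140.4 in HF+SFC, 117 in HF and 122 in Control.

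Mmp23, an unusual metalloproteinase with a membrane anchor at its start, had 148 in HF+SFC, 98.1 in HF and 116 in Control, which made HF+SFC 1.51-fold higher than HF. Its other, dimmer probe set had 55.0 in HF+SFC, 75.9 in HF and 61.6 in Control. The probe sets of Mmp23 therefore ran opposite ways, and their mean log2 ratio of HF+SFC over HF was 0.07. Mmp11, stromelysin-3, was lowest in HF, with 72.6 in HF+SFC, 61.5 in HF and 85.8 in Control, all near the median. In HF it lay below that array's own median, so its ratios with HF are no support for a difference.

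All 4 TIMPs lay above the array median. Timp4, the inhibitor typical of heart and muscle, had 4623 in HF+SFC, 4888 in HF and 5037 in Control, and its other probe set kept that order with 1413 in HF+SFC, 1549 in HF and 1579 in Control. Control was thus highest on both, by small amounts: the HF over Control ratio was 0.971 and 0.981. Timp2, which also helps Mmp14 to activate Mmp2, had 3969 in HF+SFC and 4129.7 in HF, against 3351 in Control, a 1.23-fold difference of HF over Control that 4 of its 5 probe sets above the median shared in direction.

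Timp3, the inhibitor that stays bound to the matrix and also acts on ADAM17 and ADAMTS proteases, had 3808 in HF+SFC, 3572 in HF and 3419.8 in Control. In all 4 of its probe sets above the median HF exceeded Control, although the ratio of the brightest, 0.06 on the log2 scale, became -0.02 when each array was centred on its median. Timp1, an inhibitor induced by inflammation and injury, had 178 in HF+SFC, 194 in HF and 163 in Control, with a single probe set above the median. Across the 4 TIMPs, HF exceeded Control for 3 and HF+SFC exceeded HF for 1, and no ratio reached 1.5-fold.

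Adamts3, a procollagen N-proteinase, ran in 1 order over the arrays: its signal was 125 in HF+SFC, 82.2 in HF and 48.3 in Control. The log2 ratio was 0.77 for HF over Control, 0.61 for HF+SFC over HF and 1.37 for HF+SFC over Control, so that HF+SFC was 2.59-fold higher than Control. In Control it lay below that array's own median, so it passed the filter through the groups where it was higher, and its ratios are no support for a difference. A second probe set was dim, with 22.5 in HF+SFC, 29.1 in HF and 1.06 in Control, and also had Control lowest. Adamts3 was the single gene of the 33 past 2-fold in any comparison.

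Of the ADAMTS proteases that cut proteoglycans such as versican and aggrecan, Adamts5 had 804 in HF+SFC, 591 in HF and 662 in Control on its brightest probe set. Its other probe sets ordered the arrays in other ways, with 654 in HF+SFC, 628 in HF and 459 in Control on the next, and 195 in HF+SFC, 265 in HF and 212 in Control on the last. No direction for Adamts5 was common to them. Adamts1 had 643 in HF+SFC, 626 in HF and 532 in Control, 1.18-fold higher in HF than in Control.

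Adamts9 had 274 in HF+SFC, 205 in HF and 220.3 in Control. HF+SFC was 1.34-fold higher than HF, and the 2 dimmer probe sets of Adamts9 were also highest in HF+SFC, with 98.9 and 69.4 there, 48.3 and 44.5 in HF, and 41.2 and 36.7 in Control. Adamts15 was lowest in HF+SFC, with 78.2 in HF+SFC, 95.8 in HF and 112 in Control. Adamts8 lay just inside the split, with 69.8 in HF+SFC, 76.8 in HF and 70.2 in Control. Over the 5 genes of this role above the median, HF exceeded Control for 2 and HF+SFC exceeded HF for 3.

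Adamts16 had 144 in HF+SFC, 209 in HF and 213 in Control, the lowest ratio of HF+SFC over HF among the 33 genes at 0.692. Its second probe set lay below the median and ran the other way, with a log2 ratio of 2.56. Adamts12, which cuts the cartilage protein COMP, had 158 in HF+SFC, 186 in HF and 130.5 in Control, 1.42-fold higher in HF than in Control. Adamts10, a protease tied to fibrillin microfibrils, had 118 in HF+SFC, 117 in HF and 116 in Control, nearly equal on the 3 arrays.

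ADAMTS-like proteins resemble ADAMTS proteases but lack the catalytic part, and several bind fibrillin microfibrils. Adamtsl4 had 757 in HF+SFC, 719.9 in HF and 743 in Control. Adamtsl5 had 461 in HF+SFC, 401 in HF and 563 in Control, 0.712-fold in HF relative to Control, the lowest such ratio of the 33. Its second probe set did not show this, with 221 in HF+SFC, 214 in HF and 211 in Control.

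Adamtsl2 had 180.4 in HF+SFC, 171 in HF and 136 in Control, and Adamtsl1 had 119.9 in HF+SFC, 116 in HF and 90.9 in Control, so that both were lowest in Control, by 1.26-fold and 1.27-fold in HF over Control. Adamtsl3 had 137 in HF+SFC, 162 in HF and 151 in Control. None of the 5 genes reached 1.5-fold in any comparison.

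Adam10 and Adam17 are the main sheddases, which release ligands and receptors such as Notch, TNF and IL-6 receptor from the cell surface. Adam10 had 1893 in HF+SFC, 2118 in HF and 1636 in Control, 1.29-fold higher in HF than in Control, with 2 of 3 probe sets above the median in that direction. Adam17 had 539 in HF+SFC, 547 in HF and 548 in Control. The brightest reading of Adam17 was thus flat, and its log2 ratio of HF over Control was -0.00.

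Adam9, a meltrin with wide expression, had 4370.1 in HF+SFC, 4253 in HF and 3877 in Control, the lowest being Control. Adam15 had 695 in HF+SFC, 668 in HF and 611 in Control, and of its 4 probe sets above the median 2 were higher and 2 lower in HF over Control. Adam19, meltrin beta, had 119.9 in HF+SFC, 112 in HF and 115 in Control. HF exceeded Control for 4 of the 6 ADAM genes, among them Adam12, which lay below the median.

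Lox, the lysyl oxidase that crosslinks collagen and elastin, showed the largest HF over Control ratio of the 33 genes on its brightest probe set. It had 563 in HF+SFC and 664 in HF, against 368 in Control, a 1.80-fold difference of HF over Control and a 1.53-fold difference of HF+SFC over Control. A second probe set above the median gave 297 in HF+SFC, 312 in HF and 194 in Control, that is 1.60-fold and 1.53-fold. Of the 15 genes above the 75th percentile, Lox alone reached 1.5-fold in HF over Control and in HF+SFC over Control, where 1.52% and 0.942% of all 6690 such genes were that much higher. A further probe set was far below the median and read 33.6 in HF+SFC, 0.881 in HF and 21.4 in Control. Between HF+SFC and HF both bright probe sets were lower in HF+SFC, by log2 ratios of -0.24 and -0.07. The dim probe set decides the direction when all probe sets of Lox are averaged: the log2 ratio then became -1.02 for HF over Control and 1.65 for HF+SFC over HF, and it was 0.63 for HF+SFC over Control.

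Loxl1, needed for elastic fibres, had 712 in HF+SFC, 723 in HF and 643 in Control, and Loxl3 had 157 in HF+SFC, 153 in HF and 153 in Control. Control was lowest for Loxl1, by 1.12-fold in HF over Control, and Loxl3 was nearly equal on the arrays. Loxl4 lay below the median, with 67.3 in HF+SFC, 49.1 in HF and 31.9 in Control. For all 4 lysyl oxidases measured the HF signal of the brightest probe set exceeded that of Control, with a median log2 ratio of 0.40. Over the 3 above the median it was 0.17. The other probe set of Loxl4 ran the opposite way, with 11.3 in HF+SFC, 29.7 in HF and 41.4 in Control. For 2 of the 4 genes HF+SFC exceeded HF. That Loxl3 is counted as higher depends on scaling: its ratio of 0.00 became -0.08 when arrays were centred on their medians and -0.05 after quantile normalization.

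**Figure D2:**
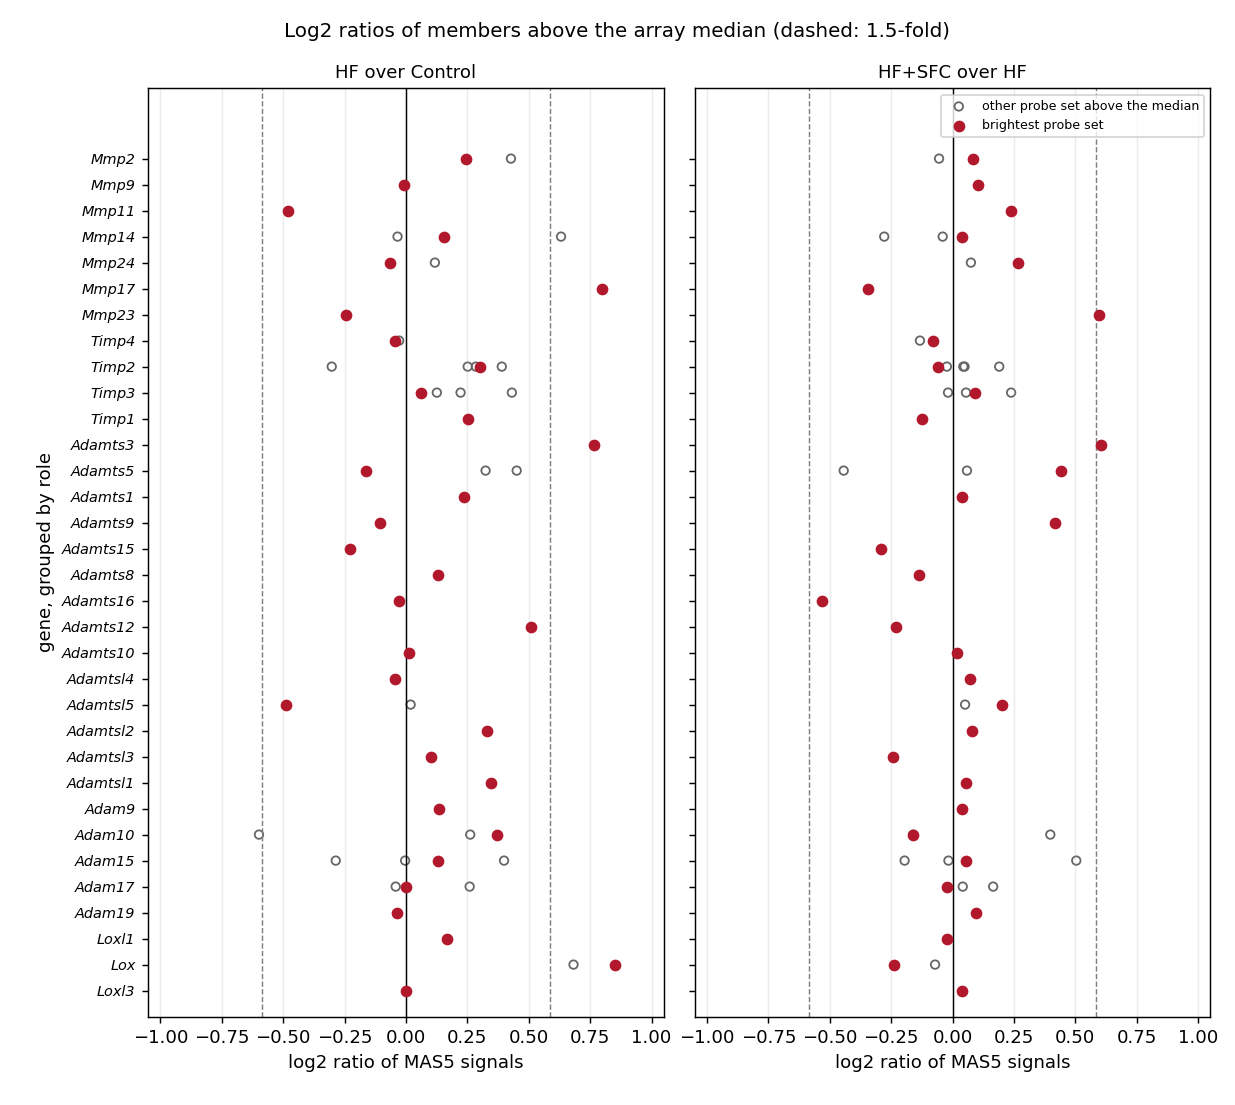
Log2 ratios of the MAS5 signals of the 33 genes above the array median, HF over Control on the left and HF+SFC over HF on the right, with filled points for the brightest probe set and open points for other probe sets above the median. Both points of Lox lie to the right of the dashed 1.5-fold line in HF over Control, whereas points of Adam10 and Adam15 fall on both sides of 0.

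Of the 33 genes, 12 had more than 1 probe set above the median, which gives a second reading of the same pool. In HF over Control all such probe sets were higher for Lox, Mmp2 and Timp3, all were lower for Timp4, and 8 genes were mixed. In HF+SFC over HF all were higher for Adamtsl5 and Mmp24, all lower for Lox and Timp4, and 8 were mixed. The brightest pair of probe sets differed by a median of 0.18 on the log2 scale in HF over Control and 0.16 in HF+SFC over HF, which is more than the log2 ratio of many of the genes above. These readings share a pool and are not replicates.

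For HF+SFC against Control, 25 of the 33 genes were higher and 8 lower, that is 75.8% higher, where 50.2% of all genes above the median were higher. Centring each array on its median left 60.6% of the 33 higher. It also moved the median log2 ratio of all 18193 genes from 0.02 to -0.08. The share of all genes that were higher after centring was not computed, so 60.6% has no matching background here. Lox and Adamts3 were at least 1.5-fold higher and none as much lower, beside 4.39% and 3.71% of all genes above the median. The median log2 ratio of the 33 was 0.17, and 0.00 over all genes above the median. This comparison shares its arrays with the other 2, so it is no separate evidence.

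The 19 genes below the median spread far more widely. In HF over Control 11 of the 19 were at least 1.5-fold higher and 2 as much lower, and over all 6832 genes below the median the shares were 36.2% and 27%. In HF+SFC over HF the counts were 8 higher and 5 lower, beside 31.5% and 29.9% of all such genes. In HF+SFC over Control they were 13 higher and 3 lower, beside 36.7% and 27%. At this signal most genes passed 1.5-fold one way or the other, so single ratios are given as values only. Taking all 52 genes together, 14 were higher and 2 lower in HF over Control (17% and 12.2% of all 18193 genes), 10 and 5 in HF+SFC over HF (13.7% and 13.5%), and 15 and 3 in HF+SFC over Control (16.5% and 12.4%). Mmp3, Adam12 and Mmp19 lay just outside the split, and Mmp9, Mmp11 and Adamts8 just inside.

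**Figure D3:**
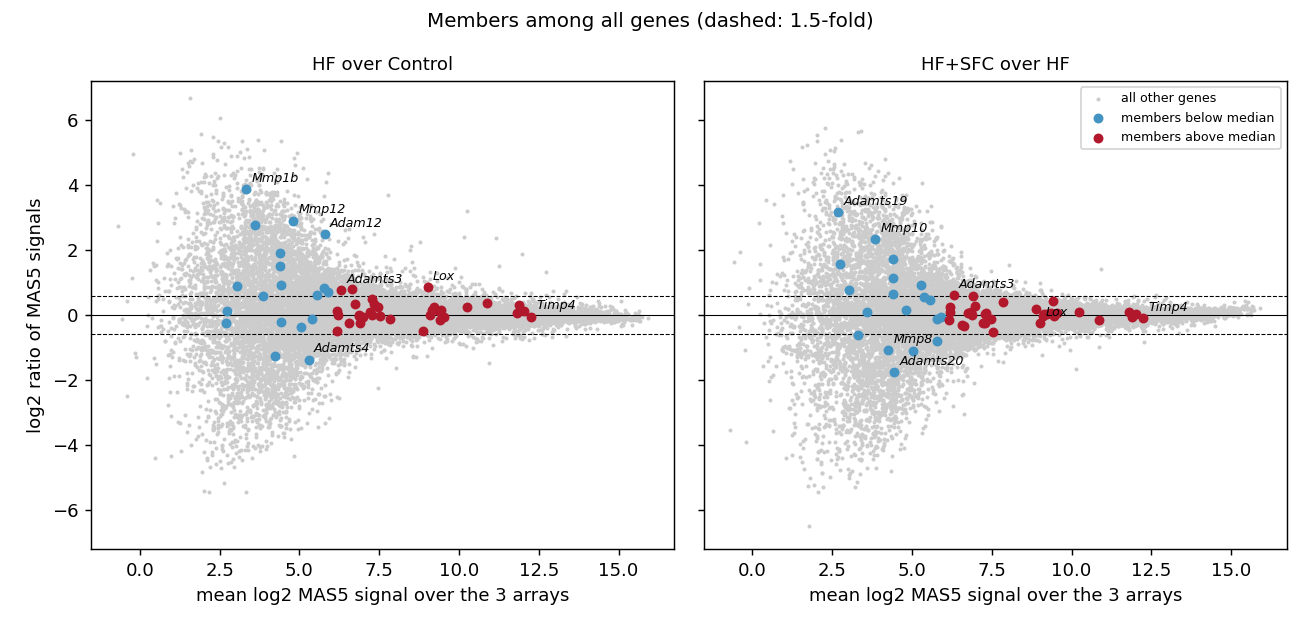
Log2 ratio of MAS5 signals against the mean log2 signal over the 3 arrays for all genes (grey), with the genes above the array median in red and those below in blue, HF over Control on the left and HF+SFC over HF on the right. The cloud widens below a mean log2 signal of about 6, where Mmp12, Mmp1b and Adam12 lie, and Lox stands at the upper edge of the cloud among brighter genes in HF over Control.

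Adam12, a meltrin that marks activated fibroblast-like progenitors and regenerating muscle, had 94.1 in HF+SFC and 101 in HF, against 17.9 in Control, a 5.66-fold difference of HF over Control. Its other probe set ran the opposite way, with 2.53 in HF+SFC, 1.12 in HF and 21.3 in Control. Mmp12, the metalloelastase of macrophages, had 58.8 in HF+SFC and 52.9 in HF, against 7.03 in Control, which is 7.52-fold on a single probe set. Adam12 and Mmp12 were therefore dim in Control and brighter in both groups on the high-fat diet on these probe sets.

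Mmp8, the collagenase of neutrophils, was highest in Control, with 8.59 in HF+SFC, 18.1 in HF and 43.5 in Control. Mmp13, the main collagenase of cartilage and bone in the mouse, had 14.1 in HF+SFC, 4.79 in HF and 4.38 in Control, and these lay far below the median on every array. Mmp3, stromelysin-1, had 68.8 in HF+SFC, 71.5 in HF and 43.6 in Control. Mmp19 had 45.9 in HF+SFC, 79.3 in HF and 44.5 in Control, its HF value alone being above the median. The remaining genes below the median, among them Mmp1a, Mmp1b, Mmp7, Mmp10, Mmp16, Mmp20, Adamts4, Adamts6, Adamts7, Adamts18, Adamts19 and Adamts20, had signals below that of their array's median on all arrays. Mmp1a and Mmp1b are close copies, and their probes may not separate them.

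**Figure D4:**
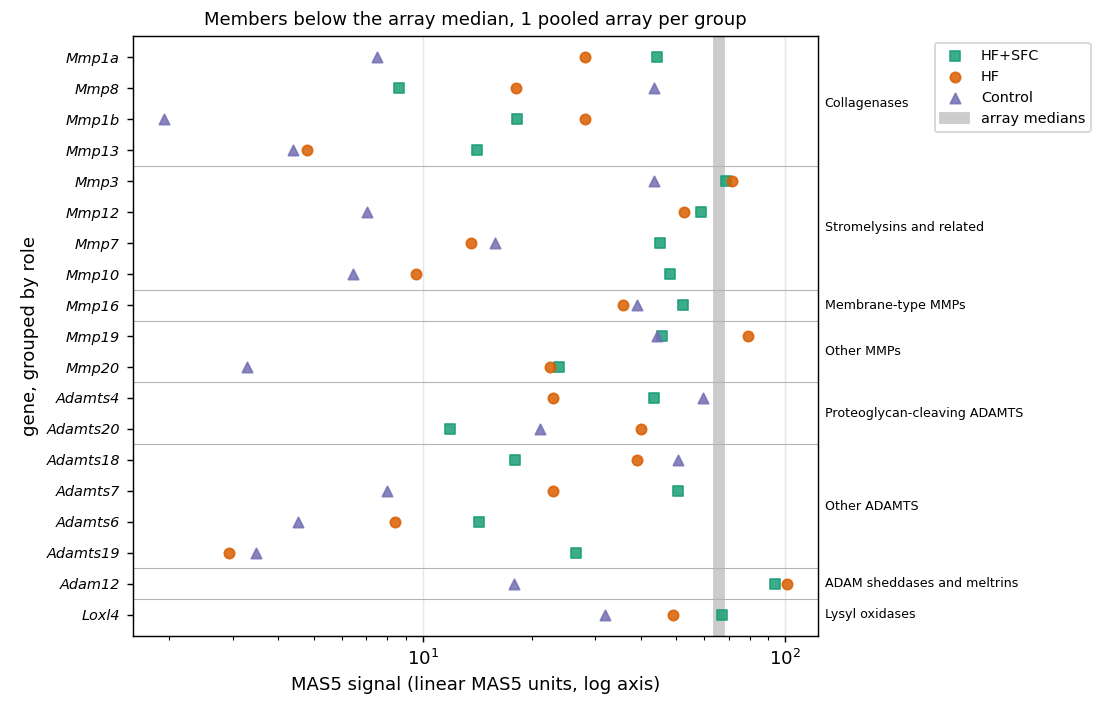
MAS5 signal (log axis, linear MAS5 units) of the 19 genes below the array median, grouped by role, with 1 symbol per pooled array and a grey band over the array medians. Values within a gene spread widely, and Control is the leftmost symbol for Mmp12, Mmp1b and Adam12 but the rightmost for Mmp8.

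Of the 18 metalloproteinase genes, 9 stand side by side on chromosome 9: Mmp13, Mmp12, Mmp1b, Mmp3, Mmp1a, Mmp10, Mmp8, Mmp20 and Mmp7, with Mmp27, not analysed here, between Mmp8 and Mmp20. None of these 9 was above the array median, and their signals were between 1.93 and 71.5, whereas 7 of the other 9 metalloproteinases were above it, with signals of 35.7 to 1335 over that whole set. Position in the genome thus went with a low signal in muscle in these data. Several genes of this cluster are textbook targets of AP-1, a transcription factor of stress and growth signals, so their promoters are shown. The stretches are the last 100 bases before the RefSeq start on GRCm38.p6, 5-prime to 3-prime on the + strand, with matches to TGANTCA (the AP-1 motif) and TATAAA (the TATA box) in capitals. Mmp8 is shown for contrast because neither motif was found in it.
Mmp13, chr9:7272414-7272513: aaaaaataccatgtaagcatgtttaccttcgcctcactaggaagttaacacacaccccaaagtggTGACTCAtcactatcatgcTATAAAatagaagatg
Mmp3, chr9:7445722-7445821: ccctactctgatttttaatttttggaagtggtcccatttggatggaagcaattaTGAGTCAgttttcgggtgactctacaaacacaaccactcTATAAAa
Mmp1a, chr9:7464041-7464140: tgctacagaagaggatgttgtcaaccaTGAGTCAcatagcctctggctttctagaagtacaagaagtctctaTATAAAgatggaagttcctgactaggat
Mmp10, chr9:7502242-7502341: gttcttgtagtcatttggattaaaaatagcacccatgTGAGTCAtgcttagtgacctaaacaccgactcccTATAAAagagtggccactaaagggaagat
Mmp7, chr9:7691990-7692089: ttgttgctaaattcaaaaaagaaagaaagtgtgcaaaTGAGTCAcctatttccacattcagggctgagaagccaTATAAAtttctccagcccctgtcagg
Mmp8, chr9:7558329-7558428: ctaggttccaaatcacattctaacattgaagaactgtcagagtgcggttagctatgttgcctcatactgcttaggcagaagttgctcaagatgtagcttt
Mmp7 has a second start in RefSeq, not shown.

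The motifs were searched on both strands in the 250 bases before the start, in 37 promoters of the 32 genes that RefSeq's table holds. TGANTCA was found in 9 of the 32 genes, namely Adam19 and all of the cluster but Mmp8, and in 7.82% of all 27025 genes. TATAAA was found in 9 of the 32, in Adamts1, Adamtsl2 and 7 genes of the cluster, and in 14.3% of all genes. Both motifs occurred in Mmp1a, Mmp1b, Mmp3, Mmp7, Mmp10, Mmp13 and Mmp20, and in 1.45% of all genes. By signal, TGANTCA was found in 1 of the 20 genes above the array median and in 8 of the 12 below it. All 8 belong to the cluster, and outside the cluster the motif was found in 1 of 23 genes. The split by signal thus cannot be told apart from membership of the cluster. A match of letters is a description of the sequence and says nothing about binding of a factor in these samples.

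Genes that open, close or feed these enzymes were described by lists, counting here the genes above the array median. Of the 7 genes of plasminogen activation and its inhibitors, HF exceeded Control for 6 and HF+SFC exceeded HF for 1, and none reached 1.5-fold. Anxa2, a cell-surface partner of plasminogen, had 1880.2 in HF+SFC, 2249.8 in HF and 1531 in Control, and Serpinb6a, a serine protease inhibitor, had 15961 in HF+SFC, 16506 in HF and 16595 in Control. Plat, the tissue plasminogen activator, had 269.8 in HF+SFC, 334 in HF and 287 in Control, and Plaur, the urokinase receptor, had 123 in HF+SFC, 105 in HF and 96.2 in Control. HF was thus the highest array for Anxa2 and Plat but not for Plaur.

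Of 10 other protease inhibitors, HF exceeded Control for 6, by 1.5-fold or more for 1 of them, and HF+SFC exceeded HF for 6. That 1 was Spock3, a matrix proteoglycan, with 166 in HF+SFC, 192 in HF and 116 in Control. Cst3, the cathepsin inhibitor cystatin C, had 20466 in HF+SFC, 19060.2 in HF and 19586 in Control. Wfikkn2, which binds myostatin, had 226 in HF+SFC, 235 in HF and 307 in Control. Tfpi2, an inhibitor of plasmin, had 81.9 in HF+SFC, 67.4 in HF and 58.1 in Control. It lay below the array's own median in HF, by very little, and in Control. It thus passed the filter through HF+SFC, where it was high, and its ratio of HF+SFC over HF is no support for a difference. Spock2 had 108 in HF+SFC, 142 in HF and 115 in Control.

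Among 10 convertases and cofactors that activate metalloproteinases or move them to the surface, HF was above Control for 4 and HF+SFC above HF for 4. Pcsk5, a furin-like convertase, had 242 in HF+SFC and 303 in HF, against 145 in Control, a 2.09-fold difference of HF over Control. Tspan14, a tetraspanin that escorts ADAM10, had 629 in HF+SFC, 409 in HF and 652 in Control, so HF stood lowest and HF+SFC was 1.54-fold higher than HF. Adam10 itself was highest in HF. Bsg, which induces metalloproteinases in neighbouring cells, had 15721 in HF+SFC, 13509 in HF and 15638 in Control.

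Of 12 lysosomal and serine proteases, the HF signal was above Control for 9 and the HF+SFC signal above HF for 5. Ctsk, the collagen-cutting cathepsin of osteoclasts and fibroblasts, had 258 in HF+SFC, 334 in HF and 219 in Control, 1.53-fold higher in HF than in Control. Ctsd had 11274 in HF+SFC, 10872 in HF and 11954 in Control, and Ctsh had 294 in HF+SFC, 390.0 in HF and 323 in Control. Cma1, a chymase of mast cells, had 90.6 in HF+SFC, 57.3 in HF and 67.6 in Control, close to the median. In HF it lay below that array's own median, so its ratio of HF+SFC over HF is no support for a difference.

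Substrates and microfibril partners were the list with the highest HF over Control median among the 9 pathway lists, at 0.29 over 17 genes, of which 14 were higher and 3 reached 1.5-fold. Mfap4, a microfibril protein, had 209 in HF+SFC and 81.0 in HF, against 22.2 in Control. Like Adamts3 it lay below the median of the Control array. Ltbp2, a latent TGF-beta binding protein, had 64.5 in HF+SFC, 105 in HF and 49.4 in Control, above its array's median in HF alone. Mfap4 and Ltbp2, 2 of the 3 genes past 1.5-fold, thus passed the filter through the arrays where they were high, which fixes part of their ratios. Hspg2, the basement membrane proteoglycan perlecan, had 973 in HF+SFC, 714 in HF and 813 in Control, and Nid1, the basement membrane protein nidogen-1, had 2521 in HF+SFC, 2988 in HF and 2642 in Control. In HF+SFC over HF the list had 7 higher and 10 lower, with a median of -0.04.

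The 3 other procollagen processing genes above the median each had more signal in HF than in Control. Pcolce, the enhancer of procollagen C-proteinase, had 2196 in HF+SFC, 2308 in HF and 1967 in Control. Pcolce2 had 634 in HF+SFC, 616 in HF and 469.6 in Control, and Bmp1, the C-proteinase itself, had 212 in HF+SFC, 188 in HF and 158 in Control. Control was lowest for each of these 3 genes.

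Of 8 collagen hydroxylases and crosslinking partners, 5 had a higher signal in HF than Control and 3 in HF+SFC than HF. Crtap, part of the prolyl 3-hydroxylase complex, had 613 in HF+SFC and 588 in HF, against 366 in Control, 1.61-fold higher in HF than in Control. P4ha1, a prolyl 4-hydroxylase subunit, had 765 in HF+SFC, 649 in HF and 805 in Control. Plod3, a lysyl hydroxylase, had 474 in HF+SFC, 642 in HF and 569 in Control, and Tgm2, a transglutaminase, had 4131 in HF+SFC, 4584 in HF and 4467 in Control. These genes did not share 1 order over the arrays.

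Of 13 TGF-beta signals and targets, 8 lay higher in HF than Control and 5 higher in HF+SFC than HF. Smad3, which carries the TGF-beta signal to the nucleus, had 3245 in HF+SFC and 3169.9 in HF, against 4816 in Control, a ratio of 0.658 for HF over Control and the only gene of this list past 1.5-fold. Postn, a matrix protein induced by TGF-beta, had 796 in HF+SFC, 896 in HF and 682 in Control. Tgfb3 had 1620.2 in HF+SFC, 1469 in HF and 1755 in Control, Smad7 had 219.9 in HF+SFC, 283 in HF and 252 in Control, and Acta2 had 7789 in HF+SFC, 8998 in HF and 8683 in Control.

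Of 12 substrates of ADAM10 and ADAM17, 10 were above Control in HF, 2 of them by 1.5-fold or more, and 6 were above HF in HF+SFC. Cxcl16, a chemokine made as a membrane protein, had 191 in HF+SFC and 168 in HF, against 26.6 in Control. The 2 genes past 1.5-fold were Cxcl16 and Cdh2, which was named after its values were seen, and both lay below the median of the Control array, so that they passed the filter only through the arrays where they were high and their calls are no support for a difference. Jag1, a Notch ligand, had 608 in HF+SFC, 537 in HF and 785 in Control. Il6ra had 120.2 in HF+SFC, 174 in HF and 151 in Control, Cx3cl1 had 104 in HF+SFC, 84.1 in HF and 76.2 in Control, and Cdh5 had 1131 in HF+SFC, 1165 in HF and 1137 in Control.

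Markers of several other cell types differed between the groups, and those of others did not share a direction. Of 13 fibroblast markers 11 had more signal in HF than in Control, and their summed signal was 50377 in HF+SFC, 51438 in HF and 41608 in Control. Dcn, the brightest of them, was 1.04-fold in HF over Control. In HF+SFC over HF 6 of the 13 were higher and 7 lower. All 8 tendon markers lay above the median, with sums of 18887 in HF+SFC, 16503 in HF and 11715 in Control. For 7 of the 8 HF was above Control. In HF+SFC over HF 4 were higher and 4 lower, with a median of -0.01. Fmod, the brightest of them, had 9839 in HF+SFC, 7527 in HF and 5106 in Control. Control was lowest in the fibroblast and tendon sums, and also in those of the macrophage and adipocyte markers below. On the brightest probe set Lox, Mmp2 and Timp2 had their lowest value in Control as well, whereas Timp4 and Adamtsl5 had their highest there. A further probe set of Timp2 was also highest in Control, with 268 in HF+SFC, 260 in HF and 321 in Control.

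Each of the 10 macrophage markers was above its Control signal in HF, with sums of 4044 in HF+SFC, 4403 in HF and 3268 in Control, and so were 7 of 8 adipocyte markers, with a median log2 ratio of 0.60 and sums of 111784 in HF+SFC, 112314 in HF and 102672 in Control. Most of that sum is Car3, Lpl and Fabp4, which differed little, whereas the fat cell hormone adiponectin (Adipoq) had 2915 in HF+SFC and 4637 in HF, against 901 in Control. Leptin (Lep) had 387 in HF+SFC and 592 in HF, against 45.8 in Control, and the lipid droplet gene Cidec had 432 in HF+SFC and 689 in HF, against 159 in Control. These 3 markers, named after their values were seen, were thus highest in HF. Lep lay below the median of the Control array, so it passed the filter through the arrays where it was high. Others on the list had another order. Retn was highest in HF+SFC, with 418 there, 386 in HF and 207 in Control. Lpl was highest in Control, with 30257 in HF+SFC, 27428 in HF and 31931 in Control. Over the 8 adipocyte markers, HF+SFC exceeded HF for 3 and was lower for 5. Markers of neutrophils, the cells for which Mmp8 and Mmp9 are known, summed to 368 in HF+SFC, 470.4 in HF and 417 in Control. Of the 7 markers 3 lay above the median, and all 3 were lower in HF than in Control. Csf3r among them lay below the median of the HF array. Over all 7, HF exceeded Control for 3 and was lower for 4, so most markers did not share the direction of the sum. The 12 defining fibre markers all had HF below Control and HF+SFC above HF, with sums of 573578 in HF+SFC, 492710 in HF and 535493 in Control. The 10 slow fibre markers had HF below Control for 9, with medians of -0.44 in HF over Control and 0.39 in HF+SFC over HF. Endothelial markers split evenly, 4 higher and 4 lower in HF over Control, with a median of -0.05. Pericyte and smooth muscle markers had HF above Control for all 7, with a median of 0.12, and HF+SFC above HF for 3. Satellite cell and regenerating fibre markers had HF above Control for 6 of 7, with a median of 0.16, and HF+SFC above HF for 4. For Schwann cell markers these counts were 3 and 1 of 4. No marker on any list was at 0, and some genes stand on more than 1 list. The part of these cell types in the ratios of the proteases and inhibitors was not tested.

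**Figure D5:**
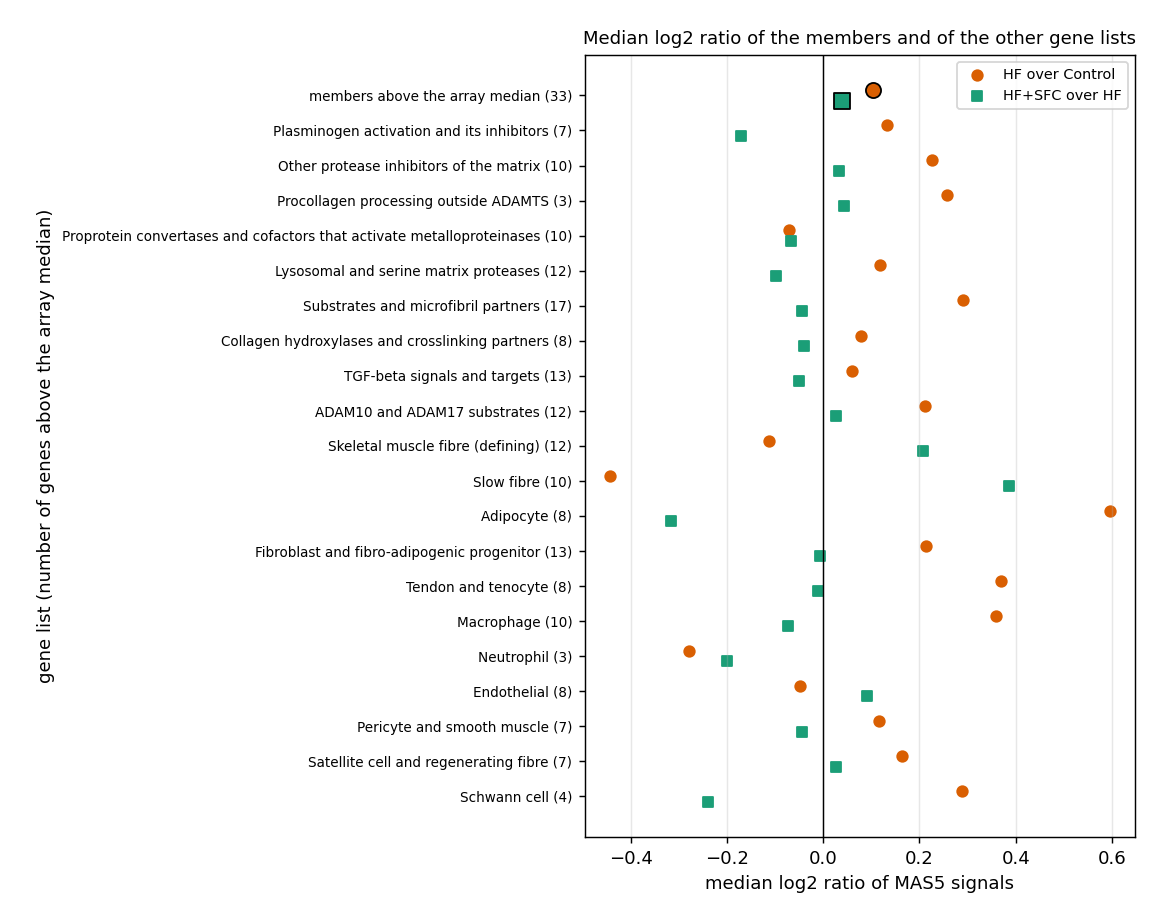
Median log2 ratio of MAS5 signals over the genes above the array median, for the 33 proteases, inhibitors and lysyl oxidases (top, outlined) and for each pathway or cell type list with at least 3 such genes, with circles for HF over Control and squares for HF+SFC over HF. The 33 genes lie at 0.10 and 0.04, nearer to 0 than the adipocyte, tendon and macrophage markers in HF over Control.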

How the data were processed

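Total RNA of gastrocnemius muscle was hybridised to Affymetrix GeneChip mouse expression arrays, 1 per group, each with cDNA pooled over the whole group. The deposited values were linear MAS5 intensities (signals), which the authors' software had scaled to the same 2% trimmed mean on each array, as checked on the values. The version of MAS5 was not given in the sources used here, and no detection calls were used. Log2 ratios were computed here from the deposited intensities, with no offset. Of 45101 probe sets, 34945 carried 1 gene symbol, 932 several and 9160 none, and 64 were controls. Symbols were updated by gene ID (34741 matched) through RefSeq's table for GRCm38.p6, which also gave the promoters and gene order.

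Each gene was read from the probe set that was brightest by mean log2 signal. Genes were split at the mean of the array medians, and 1.5-fold was used as the threshold. With 1 array per group no test was made, and the number of arrays limits the precision. All genes above the median were named, those below by role, nearness to the split or use as a cell marker. Of each pathway list the brightest gene and those with the highest and lowest ratios were named. The members and the gene lists were chosen with earlier results of these data known. Other settings tried were averaging a gene's probe sets, a 2-fold threshold, no filter, and a split at the 75th percentile. Further ones were adding 50 before log2, and scaling by quantiles or by array medians. Another preferred probe sets whose names do not end in _s_at, _x_at or _a_at, and used the others where a gene had no such probe set. The counting script was tested on simulated data. Calculations ran in Python 3.11.15 (pandas 2.3.3, numpy 2.4.6) and figures in matplotlib 3.10.9.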

Additional observations from a re-analysis of the deposited data

How the results depend on the processing

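No paired analysis was possible because each group has 1 array, so the groups share only replicate number 1, and no replicate could be left out. Of the genes above the array median, the number at least 1.5-fold higher was 3 in HF over Control, 2 in HF+SFC over HF and 2 in HF+SFC over Control, with none as much lower. In the same order of comparisons, an offset of 50 gave 1, 0 and 1 higher, a split at the 75th percentile gave 1, 0 and 1 higher of 15 genes, a 2-fold threshold gave 0, 0 and 1 higher, and no filter on signal gave 14, 10 and 15 higher and 2, 5 and 3 lower of 52 genes. The mean of all probe sets left 26 genes above the median and gave 2, 2 and 3 higher and 1, 2 and 1 lower. In that setting Lox turned in HF over Control, to a log2 ratio of -1.02, and was the 1 gene called lower there. Mmp17 and Timp2 were called higher in HF over Control, Adamts9 and Lox higher and Adam19 and Loxl1 lower in HF+SFC over HF, Mmp23 was not called, and Adamts3 fell below the median and was not counted. Median centring gave 1 higher in HF+SFC over HF, and 1 higher and 2 lower in HF+SFC over Control. The cause of these changes was not tested, apart from the fewer or more genes counted and the stricter threshold.

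The median log2 ratio over the genes kept its direction under all alternatives run, at 0.02 to 0.13 in HF over Control, 0.03 to 0.06 in HF+SFC over HF and 0.08 to 0.23 in HF+SFC over Control. The share of genes that were higher was 51.5% to 69.2% in HF over Control, 60.0% to 61.5% in HF+SFC over HF and 60.6% to 80.0% in HF+SFC over Control. The share over all genes was not computed for the other scalings. Median centring moved the median log2 ratio of all genes as well, to -0.08 in HF over Control. The ratios of single genes depended most on the choice of probe set. Of 99 such ratios, averaging all probe sets moved 46 by more than 0.1 on the log2 scale and changed the sign of 25. Preferring probe sets whose names do not end in _s_at, _x_at or _a_at moved 3. Both alternatives for single genes were chosen after seeing the data. The offset moved 16 of 99, and quantile normalization and median centring moved none by that much but changed the sign of 2 and 8 ratios close to 0. Of 510 list medians 439 moved by less than 0.1. Dim signals limit the 19 genes below the median most, and no value here carries an error from replicate animals.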
